A study of Mus musculus with 29 samples.

Results

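The 44 genes described here carry cells through DNA replication and mitosis. They were taken as a fixed list of symbols, 18 for S phase (the phase in which DNA is copied) and 26 for mitosis (the division that follows). The list was chosen with earlier results of these data known. All 44 were found in each of the 3 deposited expression tables, which list 24543 genes for day 3 epidermis, 24453 for day 3 dermis and 24081 for week 1. The libraries come from mice in which a Cre recombinase that works after tamoxifen removed Dlx3 from adult skin. Dlx3 encodes a homeobox transcription factor active in the upper epidermis and in the hair follicle.

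The deletion is called icKO and is driven by the keratin 14 promoter, which is active in the basal layer of the epidermis and in the outer cells of the hair follicle. Cells of lineages in which that promoter stays silent keep the gene. Mice were 42 to 46 days old at induction and were of mixed genetic background. The groups are labelled by the time after tamoxifen, WT controls included, so induction time is shared by icKO and WT. The day 3 epidermis has 4 WT and 4 icKO libraries without inhibitor (vehicle, as the table headers put it), and 3 WT and 4 icKO libraries with STAT3i, an inhibitor of the transcription factor STAT3. The day 3 dermis has 3 WT and 3 icKO libraries. At week 1 there are 2 WT and 2 icKO libraries of epidermis, and the same number of dermis. The columns of the tables give a group but no replicate number, so libraries are lettered a to d within a group. Nothing in the labels says which libraries are separate animals, so p-values measure only the spread between these libraries.

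In the adult epidermis division is kept to the basal layer and to the follicle, and cells that leave the basal layer stop dividing as they differentiate. Before replication the E2F transcription factors switch on S phase genes. These include the Mcm genes, whose products form the ring helicase that opens DNA, Cdc6 and Cdt1, which load that ring, Pcna, the clamp that holds the polymerase, and Rrm2, a subunit of the enzyme that makes DNA building blocks. Later in the cycle the transcription factors B-Myb (Mybl2) and Foxm1 act with the MuvB complex on mitosis genes. MuvB binds a sequence called CHR (cell cycle genes homology region), often near CCAAT boxes bound by NF-Y. Ccnb1 and Cdk1 make the kinase that starts mitosis, Plk1, Aurka and Aurkb are further mitotic kinases, and Cdc20 and Ube2c take part in the destruction of mitotic proteins that ends it. Mki67 encodes the Ki-67 protein used as a marker of dividing cells, and Top2a the topoisomerase that untangles chromosomes.

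The 2 sets differ in the sequences around their start sites. RefSeq promoter windows (build GRCm38.p6, 250 bases before to 50 bases after the start) were at hand for 36 of the 44 members, 15 of S phase and 21 of mitosis. The words searched on both strands were TTTCCCGC, TTTGGCGC, TTTCGCGC and TTTGCCGC for E2F, TTTGAA and TTCGAA for CHR, and CCAAT for NF-Y. E2F words can overlap each other, so overlapping matches count as 1 gene. An E2F word was in the windows of 7 of the 15 S phase genes (46.7%) and of 1 of the 21 mitosis genes (4.76%), against 704 of all 27025 genes with a window (2.6%). A CHR word was in 2 of 15 S phase genes (13.3%) and 16 of 21 mitosis genes (76.2%), against 5854 of all genes (21.7%). CHR and CCAAT stood in the same window in 15 of 21 mitosis genes (71.4%) and in 8.61% of all genes. CCAAT alone was common in both sets, in 9 of 15 S phase genes (60.0%) and 17 of 21 mitosis genes (81.0%), against 41.1% of all. A match is a description of letters, not evidence of binding, and short words match by chance.

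**Figure D1:**
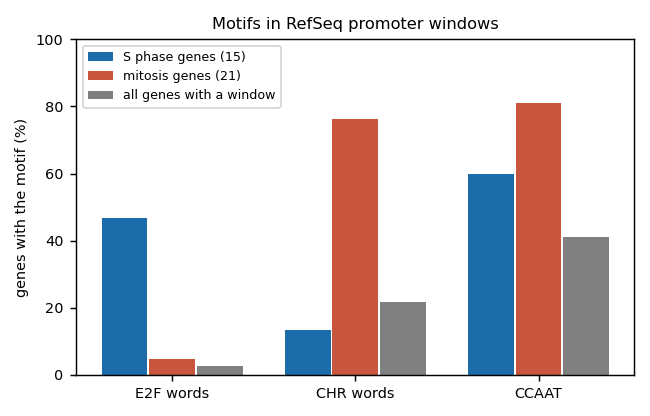
Share of genes (percent, vertical axis) whose RefSeq promoter window holds each kind of word (horizontal axis), for S phase members, mitosis members and all genes with a window. E2F words stand in 46.7% of the S phase members and CHR words in 76.2% of the mitosis members.

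Among the promoters below, those of Top2a, Cdc20 and Ube2c belong to genes with the lowest p or the largest changes in the comparisons that follow, Cdk1 holds words of each kind, and the 4 S phase promoters are those of genes for the helicase, its loader and a subunit of ribonucleotide reductase. Each is the 200 bases before the start, 5′ to 3′ on the gene's own strand, with the words above in capitals on either strand (CCAAT reads ATTGG, and TTTGAA reads TTCAAA, when the word lies on the other strand).
Top2a (chr11:99024190-99024389, minus strand): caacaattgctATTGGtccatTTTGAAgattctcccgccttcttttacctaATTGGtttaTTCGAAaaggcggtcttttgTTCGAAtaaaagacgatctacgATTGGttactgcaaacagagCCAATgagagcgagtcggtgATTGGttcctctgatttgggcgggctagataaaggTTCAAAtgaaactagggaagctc
Cdk1 (chr10:69352913-69353112, minus strand): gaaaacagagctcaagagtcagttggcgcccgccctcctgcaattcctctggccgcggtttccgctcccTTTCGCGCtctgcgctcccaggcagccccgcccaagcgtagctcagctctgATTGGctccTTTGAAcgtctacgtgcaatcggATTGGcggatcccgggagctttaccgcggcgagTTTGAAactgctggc
Cdc20 (chr4:118437344-118437543, minus strand): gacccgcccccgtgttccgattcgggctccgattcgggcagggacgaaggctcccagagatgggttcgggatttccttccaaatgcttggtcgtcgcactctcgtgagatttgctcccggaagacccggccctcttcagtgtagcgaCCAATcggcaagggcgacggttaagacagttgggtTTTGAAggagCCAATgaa
Ube2c (chr2:164769729-164769928, plus strand): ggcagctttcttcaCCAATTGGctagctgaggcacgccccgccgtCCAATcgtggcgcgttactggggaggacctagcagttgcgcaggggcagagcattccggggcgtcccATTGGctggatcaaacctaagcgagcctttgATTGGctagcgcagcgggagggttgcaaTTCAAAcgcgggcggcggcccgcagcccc
Mcm5 (chr8:75109309-75109508, plus strand): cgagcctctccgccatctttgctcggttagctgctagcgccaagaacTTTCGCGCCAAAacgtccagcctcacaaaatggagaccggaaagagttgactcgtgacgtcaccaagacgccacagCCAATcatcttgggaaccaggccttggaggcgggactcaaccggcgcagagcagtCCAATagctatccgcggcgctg
Mcm6 (chr1:128359706-128359905, minus strand): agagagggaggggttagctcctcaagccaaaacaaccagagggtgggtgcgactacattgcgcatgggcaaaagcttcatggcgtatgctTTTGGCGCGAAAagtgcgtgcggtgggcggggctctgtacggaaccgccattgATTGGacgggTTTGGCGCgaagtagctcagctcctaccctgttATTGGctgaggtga
Cdc6 (chr11:98907951-98908150, plus strand): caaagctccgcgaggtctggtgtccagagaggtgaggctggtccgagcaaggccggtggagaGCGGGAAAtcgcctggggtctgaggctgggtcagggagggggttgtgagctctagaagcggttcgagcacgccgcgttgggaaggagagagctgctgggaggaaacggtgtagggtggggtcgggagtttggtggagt
Rrm2 (chr12:24708054-24708253, plus strand): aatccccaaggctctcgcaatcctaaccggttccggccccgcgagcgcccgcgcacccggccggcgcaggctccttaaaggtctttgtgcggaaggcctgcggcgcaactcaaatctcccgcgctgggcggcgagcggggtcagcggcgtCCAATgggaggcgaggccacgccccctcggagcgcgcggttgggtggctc
Cdk1 was the mitosis gene that held an E2F word as well as CHR words. The Mcm5 and Mcm6 windows held overlapping E2F words and CCAAT boxes but no CHR word, and Cdc6 a lone E2F word. Rrm2 held a CCAAT box, and none of the 4 exact E2F words was in the windows of Rrm2, Tk1 and Tyms. Ccnb1 has CCAAT boxes and no CHR word in its window.

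Expression is given as RPKM, reads scaled by transcript length and by the mapped reads of the library, so levels can be set side by side between genes. A log2 change is the difference of mean log2(RPKM + 1) between groups, tested with limma across all genes that reached 1 RPKM in enough libraries, and a gene is called higher or lower where its Benjamini-Hochberg adjusted p over all tested genes is below 0.05. The authors list 48942701 to 70291550 alignments a library in day 3 epidermis, 10137237 to 37252138 in day 3 dermis and 37271189 to 57296317 reads at week 1. Dlx3 itself was at 3.04, 0.950, 7.13 and 7.21 RPKM in the untreated WT libraries a to d of day 3 epidermis and 1.496, 1.58, 2.22 and 1.29 in icKO, and at 6.77, 6.07 and 6.31 in WT and 1.01, 1.71, 1.66 and 1.19 in icKO with STAT3i. The library labelled WT b had the least Dlx3 of all 8 untreated libraries, so its label and its Dlx3 level disagree. The week 1 epidermis listed 3.17 and 5.79 RPKM of Dlx3 in WT against 1.46 and 1.82 in icKO, and the dermis 2.81 and 5.21 against 0.140 and 0.168. In day 3 dermis it went against the labels in 2 of 3 icKO libraries, with 64.3, 65.9 and 1.75 RPKM in the libraries labelled icKO and 3.58, 20.5 and 2.19 in those labelled WT, and directions there rest on the labels alone. The libraries labelled epidermis at day 3 also held summed skeletal muscle markers of 4093 to 11215 RPKM and fibroblast markers of 1878 to 13248 RPKM, while at week 1 those sums reached at most 18.8 and 90.3 RPKM in epidermis. In bulk tissue, fewer cells of a type and less RNA per cell cannot be told apart.

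A few libraries stood apart. The untreated icKO library c listed both the female transcript Xist at 7.20 RPKM and the male transcript Ddx3y at 5.88 RPKM, while in every other day 3 epidermis library 1 of them was under 0.05 RPKM. The sexes were not balanced: untreated WT a, b and d and all 3 WT STAT3i libraries were male, untreated icKO a, b and d and all 4 icKO STAT3i libraries were female, and WT c was female. The icKO libraries a and b were nearly alike (Pearson r 0.998 over genes), as were icKO STAT3i a and d. They differed by more than sampling noise and were kept as separate libraries. The 2 sets stood at different distances from each other in these libraries. The mean level of the 26 mitosis genes, in log2(RPKM + 1), was 1.68, 2.04, 1.86 and 1.64 in WT a to d and 2.57, 2.57, 2.07 and 2.8 in icKO a to d. For the 18 S phase genes the same means were 2.82, 2.89, 3.22 and 3.26 in WT and 3.35, 3.35, 3.0 and 3.5 in icKO. Every icKO library lay above every WT library in mitosis level, and the S phase levels of the groups overlapped.

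**Figure D2:**
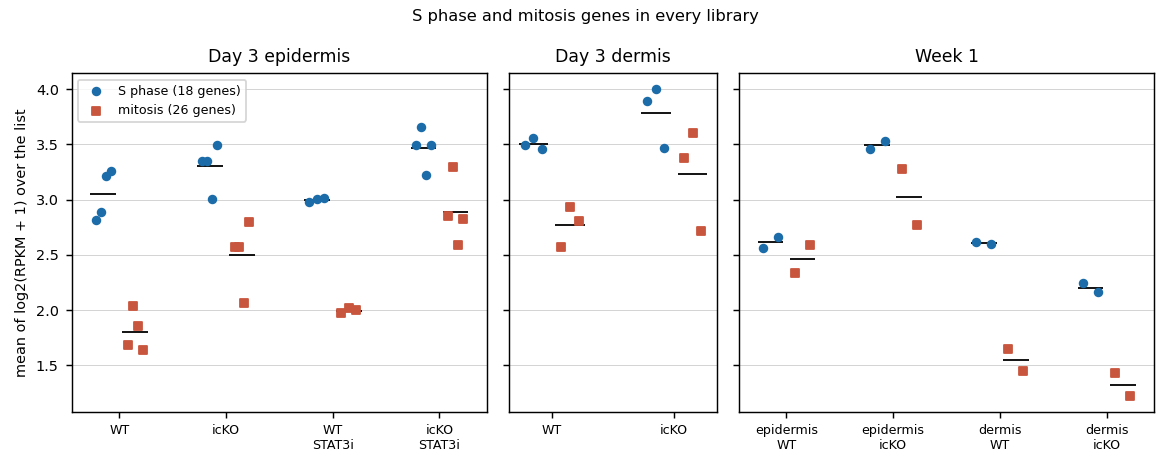
Mean log2(RPKM + 1) of the 18 S phase and the 26 mitosis members (vertical axis) in every library, by group (horizontal axis), in each of the 3 tables. In untreated day 3 epidermis the icKO mitosis levels of 2.07 to 2.80 lie above the WT levels of 1.64 to 2.04, while the S phase levels of the groups overlap.

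The first comparison asks what loss of Dlx3 did to the epidermis 3 days after induction. Mitosis genes were higher in icKO than in WT, and S phase genes mostly were not past the threshold. Of the 23 mitosis members that could be tested, 21 were higher and none lower, with a median log2 change of 0.75. Among all 13095 genes tested, 9.12% were higher and 3.7% lower, with a median of 0.04, and after quantile normalization 854 were higher and 1001 lower in place of 1194 and 485. Of the 18 S phase members, 2 were higher and none lower, with a median of 0.22. In 14 mitosis members and in no S phase member every icKO library lay above every WT library, which was so for 7.86% of all genes. Bub1, Cenpe and Cenpf were under the expression filter here, and Kif20a and Ttk missed the threshold at adjusted p of 0.0531 and 0.412. The difference between the 2 sets was not itself tested.

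Cdc20 and Ube2c had the largest changes of the mitosis members. Cdc20, the activator of the anaphase-promoting complex, stood at 4.26, 7.04, 5.45 and 4.29 RPKM in WT against 12.6, 12.98, 7.59 and 18.4 in icKO. The lowest icKO library, c, was only just above the highest WT library, b. The log2 change was 1.11 ± 0.24 (SE, adjusted p = 0.012). Ube2c, the ubiquitin-conjugating enzyme that works with it, stood at 7.57, 14.2, 9.603 and 5.77 RPKM in WT against 20.1, 22.6, 12.8 and 24.5 in icKO, with icKO c below WT b. Its log2 change was 1.06 ± 0.24 (SE, adjusted p = 0.0152).

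Top2a had the lowest p of the mitosis members. It read 5.04, 7.07, 6.04 and 5.09 RPKM in WT and 11.7, 11.3, 7.39 and 13.4 in icKO, means of 5.81 ± 0.956 (SD, n = 4) and 10.97 ± 2.55 (SD, n = 4). The groups did not overlap, and icKO c was again the lowest of its group. The log2 change was 0.80 ± 0.16 (SE, adjusted p = 0.00929). Cenpa, the histone that marks centromeres, followed at 0.88 (adjusted p = 0.0104), with 3.93, 6.09, 4.27 and 2.82 RPKM in WT and 9.11, 8.79, 6.001 and 10.6 in icKO. Here icKO c lay just under WT b.

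The mitotic cyclins among the members and the kinases Cdk1 and Plk1 were higher, while the kinase Ttk was not past the threshold and the kinase Bub1 was not tested. Ccnb1 stood at 2.897, 4.26, 3.69 and 3.23 RPKM in WT against 7.03, 7.26, 4.34 and 9.53 in icKO. Cdk1, its partner, was at 2.15, 3.396, 2.97 and 2.63 and 5.76, 5.85, 3.4 and 6.84 RPKM. In both genes icKO c almost met WT b, and the other icKO libraries lay well above. Their log2 changes were 0.80 (adjusted p = 0.0265) and 0.75 (adjusted p = 0.0146). Plk1, the kinase that drives spindle assembly, stood at 1.75, 2.91, 2.08 and 1.67 RPKM in WT against 5.51, 5.43, 3.11 and 6.598 in icKO, and rose by 0.97 (adjusted p = 0.0126). Ccnb2 and Ccna2, further cyclins of late S phase and mitosis, rose by 0.95 (adjusted p = 0.0118) and 0.89 (adjusted p = 0.0115).

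The proliferation marker Mki67 read 2.96, 4.39, 3.36 and 2.78 RPKM in WT and 6.49, 6.76, 4.38 and 7.99 in icKO. WT b and icKO c met at almost the same level, and the other 3 icKO libraries lay above all WT libraries. Mki67 rose by 0.75 ± 0.16 (SE, adjusted p = 0.013). The 2 transcription factors that act on these genes rose less. Foxm1 stood at 2.12, 3.06, 2.57 and 2.17 RPKM in WT against 3.96, 3.89, 2.99 and 4.81 in icKO, with a log2 change of 0.49 (adjusted p = 0.0265). Mybl2 was low in every library, at 1.09, 1.33, 1.63 and 1.38 RPKM in WT and 2.14, 2.26, 1.55 and 2.33 in icKO, and rose by 0.38 (adjusted p = 0.0358). For both, icKO c lay within the WT range.

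In S phase the 2 genes past the threshold were Ccne1, the cyclin that starts replication, and Rrm2. Ccne1 stood at 1.09, 1.81, 1.42 and 1.68 RPKM in WT against 2.33, 2.55, 1.63 and 3.32 in icKO, a log2 change of 0.45 (adjusted p = 0.042). Rrm2 stood at 7.76, 8.89, 10.7 and 8.78 RPKM in WT against 12.96, 12.5, 9.96 and 14.2 in icKO, a log2 change of 0.42 (adjusted p = 0.0473). Both groups overlapped through icKO c. The helicase genes showed a wide spread within WT instead. Mcm2 stood at 5.43, 5.18, 8.54 and 10.1 RPKM in WT against 9.52, 9.48, 6.82 and 10.01 in icKO, and Mcm5 at 5.904, 5.68, 8.51 and 8.49 and 10.98, 11.2, 7.05 and 12.4. WT c and d, the libraries with the most Dlx3, were at or near the icKO level of Mcm2, and the log2 changes were 0.29 (adjusted p = 0.283) for Mcm2 and 0.48 (adjusted p = 0.0954) for Mcm5.

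Uhrf1, which keeps DNA methylation through replication, had the largest S phase estimate without passing, at 0.50 ± 0.21 (SE, adjusted p = 0.119). It read 5.25, 4.63, 8.13 and 9.15 RPKM in WT and 10.8, 10.7, 6.66 and 11.5 in icKO. Pcna, the most abundant member, stood at 48.01, 47.8, 71.2 and 65.8 RPKM in WT against 64.2, 64.9, 53.1 and 75.3 in icKO (0.16, adjusted p = 0.466). The WT range of Pcna covered most of the icKO range. Cdc6 stayed close to 1 RPKM, at 0.786, 0.667, 0.926 and 1.13 in WT and 1.17, 1.15, 0.856 and 1.31 in icKO. E2f1, a transcription factor of S phase entry, stood at 6.64, 8.64, 5.897 and 6.41 RPKM in WT against 8.32, 8.61, 6.96 and 7.41 in icKO, with overlapping groups and a log2 change of 0.17 (adjusted p = 0.255).

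Other genes of the cycle, from lists that hold no members, showed the same division. These lists too were chosen with earlier results of these data known, so they are not independent support. Of 43 further mitosis genes tested, 32 were higher and none lower, led by Cdca5 (0.64 (adjusted p = 0.00627)), Pttg1 (0.80 (adjusted p = 0.00941)) and Cks1b (0.65 (adjusted p = 0.0103)). Of 27 further S phase genes none was past the threshold in either direction. Among 6 cyclin D and CDK genes only Cdk6 was higher (0.30 (adjusted p = 0.00574)). Of 6 CDK inhibitors, Cdkn1b, which encodes p27 and restrains the cycle, was lower (-0.37 (adjusted p = 0.0448)). Of 16 genes of the Rb, E2F and MuvB families, Tfdp1 (0.35 (adjusted p = 0.00829)) and E2f4 (0.23 (adjusted p = 0.0326)) were higher and Tfdp2 (-0.27 (adjusted p = 0.0199)) lower.

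The calls in untreated epidermis changed with the settings of the fit and with the libraries kept. No mitosis member was called when the 2 groups were fitted without the STAT3i libraries, when the most alike libraries were averaged, with a term for sex (median 0.57) or with the summed basal keratins as a covariate (median 0.43). Between 8 and 25 were called with 1 library left out, 8 without icKO a or icKO b, 13 without icKO d or WT d and 25 without icKO c or WT b, and 25 without WT b and icKO c together. The 2 S phase calls ended without a filter on low values, after quantile normalization, and without WT a, WT d, icKO a, icKO b or icKO d. Other cell markers moved as well. Stress keratins were higher (4 of 4, summed 454 to 1248 RPKM in WT and 1532 to 3542 in icKO), as were melanocyte markers (3 of 4, summed 10.2 to 11.6 and 18.3 to 28.1 RPKM, led by Dct at 1.16 (adjusted p = 0.00574)). Of the suprabasal keratinocyte markers Krt1 was higher (0.88 (adjusted p = 0.0291), 1 of 4) and of the inner root sheath markers Tchh (1.5 (adjusted p = 0.00773), 1 of 2 tested), and basal keratinocyte markers were not past the threshold (0 of 6, summed 2175 to 3312 and 2845 to 4392 RPKM). Neutrophil markers summed to 6.38 to 48.3 RPKM in WT and 67.7 to 349 in icKO. Of the 3 tested S100a8 and S100a9, which stressed keratinocytes also make, were higher, and Mpo was not past the threshold (-0.62 (adjusted p = 0.278)). Retnlg and Elane were under the filter, and Ly6g was listed at 0 in every icKO library. The part of these in the result was not tested.

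The same genotype comparison under STAT3i used 3 WT and 4 icKO libraries that share none with the untreated groups. All day 3 epidermis groups were fitted together, so the p-values of both comparisons rest on a shared estimate of the spread. Every mitosis member was higher in icKO than in WT, 26 of 26, with a median log2 change of 0.87. Of the 18 S phase members 11 were higher and 1, E2f1, was lower, with a median of 0.45. Bub1, Cenpe and Cenpf of the 26, and Cdc6 of the 11, were under 1 RPKM in every WT library. These genes passed the expression filter through the icKO libraries alone, which favours a higher call. Among all 13241 genes tested 19.9% were higher and 14.1% lower, with a median of 0.02. All 26 mitosis members and 15 S phase members lay higher in every icKO library than in every WT library, as did 27.5% of all genes.

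Mybl2 had the lowest p of the mitosis members. It read 1.49, 1.56 and 1.42 RPKM in WT and 3.29, 3.99, 2.57 and 3.17 in icKO, with no overlap, and rose by 0.76 ± 0.12 (SE, adjusted p = 0.000483). Ccnb1 came next, at 3.84, 4.204 and 3.87 RPKM in WT and 10.7, 17.4, 8.04 and 11.3 in icKO. Its log2 change was 1.32 ± 0.22 (SE, adjusted p = 0.00085). The WT libraries lay within a narrow band, and the icKO libraries spread widely above it, with b highest and c lowest.

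In the next 3 genes too icKO b was the highest and icKO c the lowest of the icKO libraries. Cdc20 had the largest change, 1.42 (adjusted p = 0.00126), from 7.15, 6.75 and 5.88 RPKM in WT to 17.98, 29.6, 14.04 and 18.4 in icKO. Cdk1 was at 2.401, 3.02 and 2.76 and 6.68, 8.87, 5.46 and 6.47 RPKM (1.06 (adjusted p = 0.000902)). Plk1 was at 3.26, 3.196 and 3.12 and 7.34, 11.8, 5.14 and 7.93 RPKM (1.06 (adjusted p = 0.00355)). None of these 3 had a WT library at the icKO level.

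The markers of dividing cells Mki67 and Top2a were both higher. Mki67 stood at 3.496, 4.25 and 3.97 RPKM in WT against 7.75, 11.2, 7.03 and 7.39 in icKO, and Top2a at 6.25, 6.97 and 6.701 and 13.3, 16.9, 10.9 and 12.2. Their log2 changes were 0.91 (adjusted p = 0.00191) and 0.89 (adjusted p = 0.00184). Foxm1 stood at 3.204, 3.05 and 3.22 RPKM in WT against 5.17, 6.31, 3.92 and 5.17 in icKO, with a log2 change of 0.55 (adjusted p = 0.00847). Ube2c had the highest levels of the mitosis members, at 14.6, 12.4 and 13.3 RPKM in WT and 30.9, 47.2, 27.2 and 31.6 in icKO, and rose by 1.26 (adjusted p = 0.00281).

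Rrm2 had the lowest p and the largest change of the S phase members. It stood at 5.99, 5.84 and 6.31 RPKM in WT against 12.9, 17.3, 11.4 and 12 in icKO, a log2 change of 1.01 ± 0.14 (SE, adjusted p = 0.000245). Tk1, thymidine kinase, stood at 7.01, 6.81 and 7.24 RPKM in WT against 12.7, 15.4, 12.9 and 12.96 in icKO (0.85 (adjusted p = 0.00845)). Ccne1 was at 1.34, 1.44 and 1.53 and 3.41, 3.66, 2.64 and 3.53 RPKM (0.82 (adjusted p = 0.00113)), and Tyms, thymidylate synthase, was higher at 0.25 (adjusted p = 0.023). In Rrm2, Tk1 and Ccne1 each icKO library stood well above the WT libraries.

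The helicase genes were split by the threshold. Mcm5 stood at 8.29, 7.896 and 7.95 RPKM in WT against 13.7, 17.6, 9.85 and 14.8 in icKO (0.70 (adjusted p = 0.0143)), and Uhrf1 at 6.76, 6.98 and 6.83 and 12.5, 15.3, 8.52 and 12.4 (0.72 (adjusted p = 0.0238)). Mcm2 stood at 7.21, 7.69 and 7.47 RPKM in WT against 11.7, 12.6, 8.44 and 11.9 in icKO and missed it (0.51 (adjusted p = 0.0565)). In these genes icKO c was the lowest of its group. Cdc6 stayed near 1 RPKM, at 0.665, 0.570 and 0.744 in WT and 1.21, 1.39, 0.905 and 1.13 in icKO (0.38 (adjusted p = 0.0128)). Pcna was at 49.7, 53.7 and 52.8 and 70.96, 72.5, 54.9 and 69.5 RPKM, with no overlap and a change of 0.35 (adjusted p = 0.0888).

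E2f1 went the other way. It read 8.38, 8.16 and 8.804 RPKM in WT and 6.83, 6.39, 6.01 and 7.31 in icKO, so that each icKO library lay below each WT library. The log2 change was -0.31 ± 0.10 (SE, adjusted p = 0.0346). Of 16 further genes of the Rb, E2F and MuvB families 6 were higher and 2 lower, against 19.9% and 14.1% of all genes. Those higher, opposite in sign to E2f1, included E2f2 (0.54 (adjusted p = 0.000455)) and E2f8 (0.72 (adjusted p = 0.00112)), an atypical E2F that represses.

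Of the genes outside the members, 43 of 46 further mitosis genes were higher and none lower, led by Pttg1 (1.22 (adjusted p = 0.000319)), Cks2 (1.18 (adjusted p = 0.000388)) and Nuf2 (0.85 (adjusted p = 0.000583)). Of 29 further S phase genes 15 were higher and none lower, led by Mcm10 (0.66 (adjusted p = 0.00196)), Clspn (0.51 (adjusted p = 0.0051)) and Orc1 (0.46 (adjusted p = 0.00516)). Ccnd1, the cyclin that answers growth signals, was higher (0.71 (adjusted p = 0.00437)), and so was Cdk6 (0.17 (adjusted p = 0.0364)). Of 6 CDK inhibitors 2 were higher and 1 lower. Cdkn1a, which encodes p21 and brakes the cycle, stood at 60.7, 58.2 and 59.9 RPKM in WT against 117, 135, 147 and 118 in icKO, a log2 change of 1.1 (adjusted p = 0.000223). Cdkn2b was higher at 0.43 (adjusted p = 0.0178) and Cdkn1b lower at -0.47 (adjusted p = 0.00967).

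**Figure D3:**
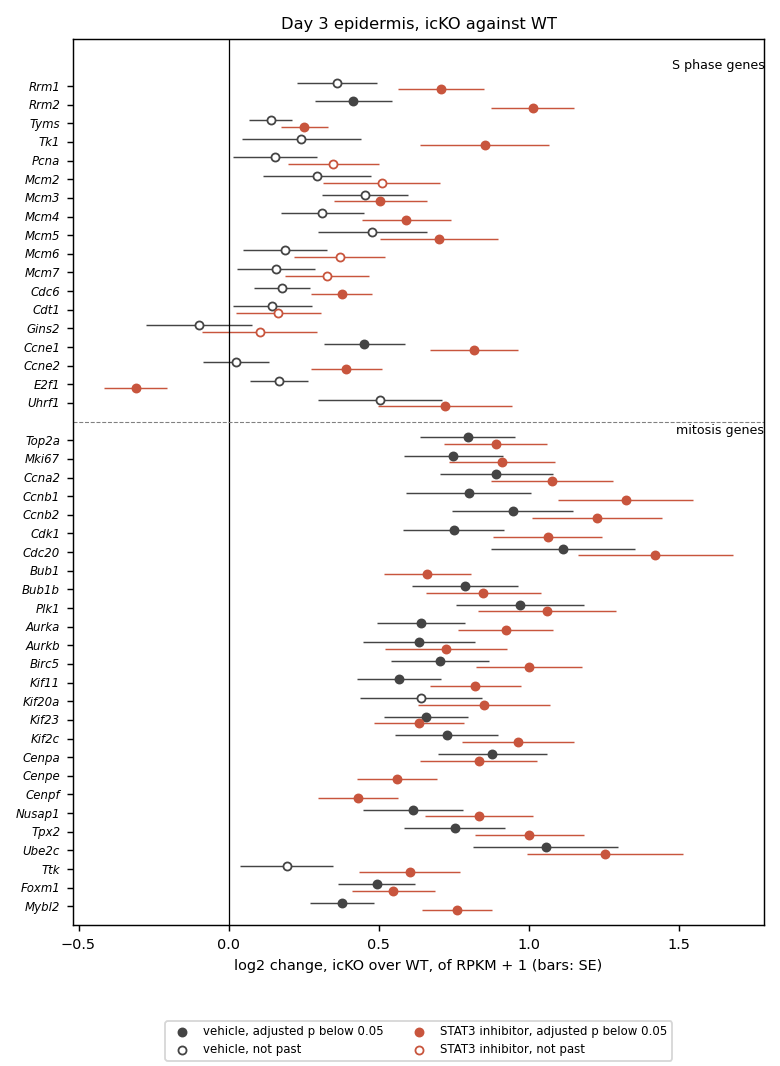
Log2 change of RPKM + 1, icKO over WT (horizontal axis, bars show SE), of each member (vertical axis) in untreated and in STAT3i day 3 epidermis. Untreated changes past the threshold number 21 of 23 mitosis and 2 of 18 S phase members, and with STAT3i 26 of 26 and 11 of 18 were higher.

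Under STAT3i every WT library was male and every icKO library female, so genotype and sex cannot be told apart within these 7 libraries. With a sex term, which is then estimated from the untreated libraries, no member was called and the medians were 0.59 for mitosis and 0.17 for S phase. The basal keratin covariate also left no call, with medians of 0.19 and -0.003. With 1 library left out, 24 to 26 mitosis and 6 to 14 S phase members were called higher, 6 without icKO b, 7 without any of the 3 WT libraries and 14 without icKO c. Markers of several cell types moved with the genotype here. Stress keratins were higher (4 of 4, summed 683 to 813 RPKM in WT and 3367 to 6604 in icKO), as were suprabasal markers (3 of 4, 3140 to 3375 and 7038 to 8882), while fibroblast markers were lower (4 of 6, 8755 to 10577 and 2598 to 3799). Basal keratinocyte markers were split (summed 2473 to 2657 and 4136 to 6690). Of these 6 markers 3 were higher, and 2 had negative estimates that were not past the threshold. Of the neutrophil markers, summed 33.9 to 36.9 RPKM in WT and 239 to 738 in icKO, S100a8 and S100a9 were higher and Mpo lower (-1.38 (adjusted p = 0.0186)). The part of these in the result was not tested.

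STAT3i against untreated within a genotype reuses the groups above as its ends, so these comparisons share libraries with both genotype comparisons and with each other's interaction. In icKO epidermis 1 member was past the threshold. Mybl2 went from 2.14, 2.26, 1.55 and 2.33 RPKM untreated to 3.29, 3.99, 2.57 and 3.17 with STAT3i, without overlap, a log2 change of 0.47 ± 0.11 (SE, adjusted p = 0.0292). Among all 13074 genes 2.81% were higher and 2.75% lower, so 1 call among 44 members tested was near the share of all genes. The mitosis members had a median of 0.38 and the S phase members of 0.16. Ube2c had the largest estimate of the mitosis members, 0.75 (adjusted p = 0.0794), followed by Ccnb1 at 0.67 (adjusted p = 0.0731). In S phase Ccne1 had the lowest p (0.33 (adjusted p = 0.146)) and Tk1 (0.49 (adjusted p = 0.149)) and Mcm5 (0.39 (adjusted p = 0.195)) the largest estimates. The Mybl2 call was lost without icKO c, the lowest untreated library, as it was without 5 others.

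In WT epidermis 2 replication genes were lower with STAT3i and no member was higher. Rrm2 was at 7.76, 8.89, 10.7 and 8.78 RPKM untreated and 5.99, 5.84 and 6.31 with STAT3i, each STAT3i library below each untreated one, a log2 change of -0.50 ± 0.14 (SE, adjusted p = 0.0246). Ccne2, the second E-type cyclin, was lower at -0.44 (adjusted p = 0.0234), with 1.95, 1.69, 2.37 and 2.57 RPKM untreated and 1.26, 1.31 and 1.35 with STAT3i. No other of the 17 S phase members tested and none of the 23 mitosis members was past the threshold, with medians of -0.03 and 0.25. Kif23 (0.39 (adjusted p = 0.0828)) and Cenpa (0.44 (adjusted p = 0.123)) had the lowest mitosis p, and Ube2c (0.55 (adjusted p = 0.147)) and Plk1 (0.45 (adjusted p = 0.177)) the largest estimates. Among all 13211 genes 10.9% were higher and 7.86% lower, 1441 and 1039 genes, and 1410 and 1570 after quantile normalization. With 2 of 40 members tested lower, the lower calls lay near the share of all genes. Both S phase calls ended when the 2 groups were fitted alone, and without WT c or any of the STAT3i libraries. Macrophage markers were higher in the same comparison (4 of 5, summed 76.6 to 469 RPKM untreated and 598 to 696 with STAT3i), and their part was not tested.

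Of 6 CDK inhibitors 3 were lower with STAT3i in WT and 2 in icKO, and none was higher. Cdkn1b was lower in WT (-0.45 (adjusted p = 0.0223)) and in icKO (-0.55 (adjusted p = 0.0204)). In icKO Cdkn1c, which encodes p57, went from 19.1, 20, 15.8 and 6.75 RPKM to 5.42, 4.57, 5.17 and 6.34 (-1.27 (adjusted p = 0.0162)). In WT Cdkn1a (-0.53 (adjusted p = 0.0248)) and Cdkn2d (-0.27 (adjusted p = 0.0288)) were lower as well.

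Whether STAT3i changed the genotype difference was tested as an interaction, and no member was past the threshold. Of 13563 genes 0.73% were higher and 1.41% lower by that test. E2f1, at -0.48 ± 0.14 (SE, adjusted p = 0.0742), and Rrm2, at 0.60 ± 0.19 (SE, adjusted p = 0.084), had the lowest p of the S phase members. Tk1 had the largest estimate (0.61 (adjusted p = 0.222)). Mybl2 (0.38 (adjusted p = 0.161)) and Ttk (0.41 (adjusted p = 0.295)) had the lowest p of the mitosis members, and Ccnb1 (0.52 (adjusted p = 0.318)) the largest estimate. The larger count of S phase calls under STAT3i than without it is therefore not shown to be a difference between the conditions.

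In day 3 dermis the comparison of the libraries labelled icKO with those labelled WT gave no call, for the members or for any of 13017 genes (0% higher, 0% lower). At an unadjusted p under 0.05 limma gave 1 S phase and 3 mitosis members, and 1643 of all genes. All 26 mitosis members and 16 of 18 S phase members had positive estimates, with medians of 0.40 and 0.28 against -0.01 for all genes. Without icKO c, 12 mitosis and 7 S phase members were called higher, and 1535 of all genes higher and 1657 lower. The libraries are therefore described singly, by their labels, which the Dlx3 level did not match in icKO a and b.

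The libraries labelled icKO a and b had the highest levels of every member given here but E2f1, and icKO c was mostly within or below the WT range. Mki67 was at 6.12, 7.05 and 7.98 RPKM in the libraries labelled WT a to c and 10.8, 13.3 and 5.76 in those labelled icKO a to c. Ccnb1 was at 6.44, 8.79 and 6.93 and 13.1, 15.8 and 6.99 RPKM, and Cdk1 at 5.096, 9.08 and 7.896 and 11.1, 13.6 and 7.32. In these genes icKO c was no higher than the highest WT library. Plk1 stood at 4.63, 6.66 and 5.76 RPKM in WT against 10.6, 12.3 and 5.93 in icKO, Top2a at 10.1, 11.9 and 11.6 and 17.2, 19.1 and 9.65, and Foxm1 at 2.65, 3.9 and 3.31 and 4.96, 6.501 and 2.89. The same 2 icKO libraries were high in each, and icKO c was not above the highest WT library in Foxm1, Plk1 or Top2a.

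Mybl2 RPKM values were 3.28, 3.92 and 2.75 in WT against 11.6, 10.3 and 2.35 in icKO (0.87 (adjusted p = 0.429)), the largest estimate of the mitosis members together with Ube2c. Ube2c stood at 25.04, 33.3 and 35.8 RPKM in WT against 59.8, 69.4 and 43.01 in icKO, without overlap (0.84 (adjusted p = 0.362)). Kif2c, a kinesin that corrects chromosome attachments, had the second lowest p (0.73 (adjusted p = 0.38)).

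Among the S phase members Rrm2 was at 9.04, 12.3 and 10.4 RPKM in libraries labelled WT and 23.1, 24.4 and 13.6 in libraries labelled icKO, without overlap (0.85 (adjusted p = 0.37)). Mcm7 (0.47 (adjusted p = 0.397)) and Uhrf1 (0.61 (adjusted p = 0.407)) came next by p and by size. Uhrf1 stood at 8.54, 11.7 and 8.13 RPKM in WT against 17.3, 20.2 and 9.24 in icKO, Mcm5 at 12.4, 13.5 and 10.2 and 20.8, 21.5 and 12.1, and Mcm2 at 10.3, 12.3 and 10.5 and 15.6, 16.6 and 8.796. Each had icKO a and b above all WT libraries and icKO c within or below the WT range. Pcna was at 84.9, 80.2 and 87.3 and 94.6, 106 and 72.2 RPKM, Ccne1 at 2.86, 3.62 and 3.88 and 5.87, 5.03 and 2.99, and Cdc6 at 0.870, 1.197 and 0.931 and 1.51, 1.91 and 0.925. E2f1 did not follow, at 10.7, 6.17 and 9.1 RPKM in WT and 6.67, 7.503 and 15.4 in icKO, with its highest level in icKO c.

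Hair shaft genes were high in 3 libraries, icKO a, icKO b and WT b. The mean log2(RPKM + 1) of 10 hair shaft genes, all keratins of the hair fibre, was 0.51, 7.1 and 0.19 in WT a to c and 9.08, 9.37 and 0.30 in icKO a to c. WT a, WT c and icKO c had almost none. The mitosis level was 2.57, 2.93 and 2.8 in WT and 3.37, 3.61 and 2.72 in icKO, and the S phase level 3.5, 3.55 and 3.46 and 3.9, 4.01 and 3.47. WT b, with hair shaft genes, had the highest mitosis level of the 3 WT libraries, at 2.93 against 2.57 and 2.80, but stayed below icKO a and b. With the hair shaft level as a covariate the medians were 0.18 for mitosis and 0.14 for S phase, and no member was called. The part of hair shaft level in the members' values was not tested beyond that fit.

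**Figure D4:**
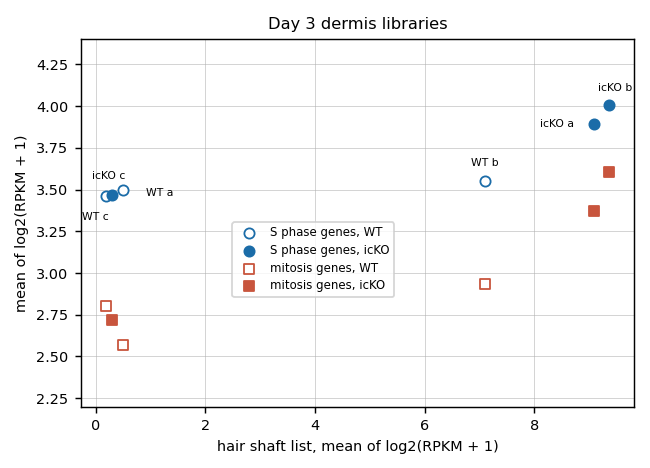
Mean log2(RPKM + 1) of the S phase and mitosis members (vertical axis) against that of 10 hair shaft genes (horizontal axis) in each of the 6 day 3 dermis libraries. The icKO libraries a and b, at hair shaft levels of 9.08 and 9.37, have mitosis levels of 3.37 and 3.61, and WT b at 7.10 has 2.93.

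One week after induction the epidermis of icKO mice had more of most S phase genes and of part of the mitosis genes than WT epidermis. Of 17 S phase members tested 11 were higher and none lower, with a median log2 change of 0.96, and all 17 had both icKO libraries above both WT libraries. Of 26 mitosis members 11 were higher and none lower, with a median of 0.61, and 5 had negative estimates. Here most genes moved down: of 11796 tested 11.7% were higher and 43.6% lower, with a median of -0.50, and after quantile normalization that median was -0.08, with 2281 higher and 2744 lower in place of 1377 and 5147. Under quantile normalization 17 S phase and 17 mitosis members were higher. Groups without overlap in the higher direction made up 21.1% of all genes, so with 2 libraries a group such separation is common. Only Cdc6 was under the filter, at 0.412 and 0.537 RPKM in WT and 0.721 and 0.819 in icKO.

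Rrm2 had the lowest p of the S phase members here. It stood at 9.199 and 11.03 RPKM in WT against 29.7 and 30.7 in icKO, a log2 change of 1.49 ± 0.17 (SE, adjusted p = 0.00329). Mcm5 was at 3.57 and 4.31 and 12.1 and 13.7 RPKM (1.5 ± 0.18 (SE, adjusted p = 0.00371)), and Tk1 at 5.25 and 5.88 and 15.9 and 18.2 (1.46 (adjusted p = 0.00352)). The 2 libraries of each group were close to each other in all 3 genes. Ccne1 stood at 0.878 and 1.22 RPKM in WT against 4.29 and 4.47 in icKO (1.4 (adjusted p = 0.00365)), Mcm2 at 3.74 and 3.63 and 8.66 and 8.86 (1.06 (adjusted p = 0.00601)), and Uhrf1 at 3.65 and 4.61 and 8.36 and 9.48 (0.96 (adjusted p = 0.0119)). These also separated cleanly.

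Pcna and E2f1 had smaller estimates. Pcna stood at 67.4 and 75.7 RPKM in WT against 119 and 140 in icKO (0.84 (adjusted p = 0.0122)). E2f1 stood at 1.99 and 2.11 RPKM in WT against 2.84 and 4.001 in icKO and was not past the threshold (0.52 (adjusted p = 0.071)). Mcm6 and Mcm7, helicase subunits like Mcm5, had estimates of 0.36 (adjusted p = 0.114) and 0.26 (adjusted p = 0.208). The 6 Mcm genes encode subunits of a single complex and did not all pass: 4 of 6 were higher.

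In mitosis the leading genes were Birc5, which encodes survivin of the chromosomal passenger complex, and Mybl2. Birc5 stood at 5.62 and 6.503 RPKM in WT against 24.7 and 20.2 in icKO (1.73 ± 0.19 (SE, adjusted p = 0.00312)). Mybl2 was at 0.760 and 1.05 and 4.21 and 4.698 RPKM (1.52 ± 0.17 (SE, adjusted p = 0.00319)). Cdk1 stood at 3.89 and 5.15 RPKM in WT against 15.1 and 11.8 in icKO (1.39 (adjusted p = 0.00636)). Both icKO libraries stood well above both WT libraries in all 3.

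Ccnb1 stood at 6.09 and 8.91 RPKM in WT against 20.2 and 17.5 in icKO (1.24 (adjusted p = 0.00944)), Ube2c at 17.2 and 19.1 and 65.3 and 41.2 (1.47 (adjusted p = 0.00851)), and Plk1 at 2.57 and 3.16 and 7.25 and 5.19 (0.89 (adjusted p = 0.0221)). The icKO library a was above b in each of them. Other mitosis genes were far from the threshold. Mki67 stood at 7.11 and 10.1 RPKM in WT against 10.6 and 7.78 in icKO (0.09 (adjusted p = 0.776)), Top2a at 11.2 and 13.4 and 13.6 and 9.54 (-0.10 (adjusted p = 0.739)), and Foxm1 at 2.75 and 3.29 and 3.62 and 3.16 (0.13 (adjusted p = 0.555)). The groups overlapped in all 3. Ttk, the spindle checkpoint kinase, had the lowest estimate, at 8.52 and 9.59 RPKM in WT and 7.06 and 3.31 in icKO (-0.77 (adjusted p = 0.102)).

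Transcript length moved with the change of the mitosis members. Of the 15 whose longest GENCODE transcript with a RefSeq record exceeds 3000 bases, 4 were higher, with a median log2 change of 0.28, and of the 11 others 7 were higher, with a median of 0.89. Across the 26 members Spearman's rho of length and log2 change was -0.51, a description over genes that share the same 4 libraries. Over 10938 of all 11796 tested genes the same rho was -0.38, with a median change of -0.75 for longer and -0.20 for other transcripts. Length moved with the change across all genes in this comparison, and its part in the members' values was not tested. Among the mitosis members in untreated day 3 epidermis rho was -0.44 (23 members), while over all genes there it was -0.02.

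Other regulators of the cycle were called in both directions, as were genes at large. Of the CDK inhibitors 3 of 6 were lower and none higher, near the 43.6% of all genes that were lower, led by Cdkn1b, at 45.1 and 43.3 RPKM in WT and 14.6 and 13.2 in icKO (-1.6 (adjusted p = 0.00268)). Ccnd1 was higher (0.85 (adjusted p = 0.0241)), and Ccnd2 (-1.74 (adjusted p = 0.00484)) and Cdk6 (-0.57 (adjusted p = 0.0332)) were lower. Among 17 genes of the Rb, E2F and MuvB families E2f7 (1.12 (adjusted p = 0.00335)), E2f8 (1.02 (adjusted p = 0.00645)) and Tfdp1 (0.52 (adjusted p = 0.0473)) were higher, and 5 were lower, led by Tfdp2 (-1.67 (adjusted p = 0.00319)), Rbl2 (-1.7 (adjusted p = 0.00373)) and Rb1 (-0.83 (adjusted p = 0.0152)). Of 27 further S phase genes 13 were higher, led by Gins1 (1.97 (adjusted p = 0.00212)), Gmnn (1.6 (adjusted p = 0.00314)) and Rfc4 (1.02 (adjusted p = 0.00687)), and Dnmt1 (-1.01 (adjusted p = 0.0123)) and Pold1 (-0.69 (adjusted p = 0.0239)) were lower. Of 47 further mitosis genes 17 were higher, led by Cks1b (1.67 (adjusted p = 0.00421)), Cdkn3 (1.95 (adjusted p = 0.00495)) and Ska1 (1.0 (adjusted p = 0.00534)), and Espl1 (-1.0 (adjusted p = 0.00727)) and Iqgap3 (-0.66 (adjusted p = 0.014)) were lower.

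All calls in week 1 epidermis, of members and of genes at large, were lost without either WT library. The remaining WT library is then assumed to vary like the icKO libraries. Without icKO a some mitosis members were called lower beside those called higher, and without icKO b more were called higher. Each of these fits leaves 1 library in a group, and the share of all genes called in them is not given here. Neutrophil markers summed to 26.7 to 55.02 RPKM in WT and 12520 to 18464 in icKO, most of it S100a8 and S100a9, and stress keratins to 890 to 1260 and 8071 to 11221 RPKM (4 of 4 higher). Retnlg, a granulocyte gene, stood at 0.257 and 0.156 RPKM in WT against 32.5 and 132 in icKO. The granulocyte genes Mpo and Elane were under the filter, and Ly6g was not listed. Mean RPKM was 0.276 in WT and 0.129 in icKO for Mpo, and 0.0206 and 0.0327 for Elane. Suprabasal keratinocyte markers were lower (2 of 4, 6603 to 7091 and 142 to 1704 RPKM), as were T and B cell markers (3 of 3 tested, 35.1 to 38.2 and 1.98 to 11.7 RPKM). Of the basal keratinocyte markers 1 of 6 was higher and 3 were lower, of the macrophage markers 2 of 4 were higher, and of 5 fibroblast markers tested 1 was higher and 3 were lower. The part of these in the members' values was not tested.

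In week 1 dermis the share of S phase members lower in icKO was near that of all genes. Of 16 S phase members tested 7 were lower in icKO and none higher, with a median log2 change of -0.41. Of 21 mitosis members 2 were higher and 3 lower, with a median of -0.37. Among all 12744 genes 8.41% were higher and 40.9% lower, with a median of -0.38, so the members' medians lay at the level of all genes. After quantile normalization, with 2196 genes higher and 2283 lower and a median of 0.00, 2 S phase members were higher and 2 lower, and 3 mitosis members were higher and 1 lower.

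The largest differences were those of Mcm2 and Uhrf1. Mcm2 stood at 5.96 and 6.24 RPKM in WT against 2.33 and 2.25 in icKO (-1.11 ± 0.14 (SE, adjusted p = 0.0026)), and Uhrf1 at 4.604 and 4.52 and 1.77 and 1.45 (-1.1 ± 0.15 (SE, adjusted p = 0.00293)). The libraries of a group were close to each other. Mcm5 stood at 5.57 and 6.07 RPKM in WT against 3.08 and 2.89 in icKO (-0.77 (adjusted p = 0.00704)), Mcm7, Mcm6, Mcm3 and Cdt1 were lower by the same test, and Mcm4 was not past the threshold (-0.31 (adjusted p = 0.148)). Pcna was at 75.5 and 63.6 and 53.4 and 53.9 RPKM (-0.36 (adjusted p = 0.0689)) and Rrm2 at 2.45 and 3.25 and 3.16 and 2.01 (-0.11 (adjusted p = 0.676)), neither past the threshold. E2f1 stood at 4.24 and 3.99 RPKM in WT against 4.55 and 4.43 in icKO (0.10 (adjusted p = 0.578)), and Cdc6 and Ccne1 were under the filter.

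Mitosis genes were low in dermis. Plk1 stood at 2.23 and 1.95 RPKM in WT against 0.740 and 0.704 in icKO (-0.84 ± 0.14 (SE, adjusted p = 0.00494)), and Cdc20 (-0.70 (adjusted p = 0.0145)) and Ccnb1 were lower as well. Ccnb1 stood at 2.91 and 2.799 RPKM in WT against 1.89 and 1.22 in icKO (-0.60 (adjusted p = 0.0296)). Birc5 was higher, at 3.12 and 3.0 RPKM in WT and 5.95 and 5.21 in icKO (0.70 (adjusted p = 0.0108)), and Ube2c too, at 10.4 and 10.7 and 16.2 and 16.1 (0.57 (adjusted p = 0.0145)). Mki67 was at 2.19 and 1.13 and 1.12 and 0.596 RPKM (-0.50 (adjusted p = 0.124)) and Top2a at 4.23 and 1.74 and 1.98 and 1.43 (-0.49 (adjusted p = 0.221)), with WT a above the other 3 libraries in both. Cdk1 stood at 3.36 and 3.06 RPKM in WT against 2.55 and 1.91 in icKO (-0.39 (adjusted p = 0.0937)) and Foxm1 at 1.25 and 1.31 and 0.807 and 0.649 (-0.40 (adjusted p = 0.0536)). Mybl2 was under the filter, at 0.704 and 1.07 and 0.585 and 0.380 RPKM.

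Of the further S phase genes 6 of 23 were lower and none higher, a smaller share than the 40.9% of all genes, led by Dnmt1 (-1.15 (adjusted p = 0.00257)), Pold1 (-1.04 (adjusted p = 0.0039)) and Lig1 (-0.60 (adjusted p = 0.0213)). Of 30 further mitosis genes 4 were higher, led by Spc24 (2.34 (adjusted p = 0.00203)), and 3 were lower, led by Ncapd2 (-0.84 (adjusted p = 0.00727)). The D cyclins Ccnd3 (-0.84 (adjusted p = 0.00386)), Ccnd2 (-0.92 (adjusted p = 0.00428)) and Ccnd1 (-0.89 (adjusted p = 0.0045)) were lower, and of the CDK inhibitors 4 of 6 were lower, led by Cdkn1a (-1.34 (adjusted p = 0.00203)). With 1 library left out 3 to 7 S phase members were lower, 3 without icKO b, and the 2 higher mitosis members were lost without either icKO library. Basal keratinocyte markers were lower in the same libraries (6 of 6, summed 1900 to 2472 RPKM in WT and 506 to 689 in icKO), as were hair shaft genes (10 of 10, 91.7 to 96.9 and 2.45 to 4.49 RPKM), suprabasal markers (4 of 4), hair matrix markers (6 of 6 tested), inner root sheath markers (8 of 9 tested) and endothelial markers (3 of 3). Of the macrophage markers 2 of 4 were higher and 1 had a negative estimate (summed 91.2 to 103 and 156 to 165 RPKM). Their part in the members' values was not tested.

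The genotype effects in the 2 tissues were compared directly by an interaction across the 8 week 1 libraries. Tissue and the route of tamoxifen may be confounded in these libraries, and the part of each was not tested. In 23 of 43 members tested the icKO change was higher in epidermis than in dermis, 13 of 17 S phase and 10 of 26 mitosis members, and in none lower. Of all 13539 genes 15.3% were higher and 17.2% lower by this test, with a median of -0.06. The S phase members had a median difference of 1.30 and the mitosis members of 0.73. Mcm5 had the largest difference, 2.27 ± 0.22 (SE, adjusted p = 0.000877), and Mcm2 the lowest p, 2.17 ± 0.19 (SE, adjusted p = 0.000635). Uhrf1 differed by 2.05 (adjusted p = 0.00145), Mybl2 by 1.87 (adjusted p = 0.00177), Ccnb1 by 1.85 (adjusted p = 0.00484) and Plk1 by 1.73 (adjusted p = 0.0034). The members not past the threshold included Top2a (0.40 (adjusted p = 0.527)), Mki67 (0.59 (adjusted p = 0.275)) and Foxm1 (0.53 (adjusted p = 0.0754)). With 1 library left out 11 to 14 S phase and 5 to 16 mitosis members were past the threshold in that direction, 5 without epidermis WT a, 6 without dermis icKO b and 16 without epidermis icKO b.

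Normal epidermis and normal dermis differed in these genes in their own way. In WT libraries 17 of 25 mitosis members tested were higher in epidermis and none lower, against 25.5% higher and 33.9% lower of all 13108 genes. Of these 17, Cenpe and Cenpf were under 1 RPKM in both dermis libraries and passed the filter through epidermis alone. Of 16 S phase members 2 were higher in epidermis and 5 lower. The median log2 differences were 0.93 for mitosis and -0.06 for S phase. This comparison shares its WT libraries with the week 1 genotype comparisons above. After quantile normalization, with 4399 genes higher and 3740 lower in place of 3338 and 4439, 24 mitosis members were higher, and 5 S phase members were higher and 3 lower.

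Mki67 was at 7.11 and 10.1 RPKM in WT epidermis and 2.19 and 1.13 in WT dermis (1.86 ± 0.27 (SE, adjusted p = 0.000772)). Ttk had the largest difference (2.08 ± 0.30 (SE, adjusted p = 0.000691)), and Top2a was at 11.2 and 13.4 against 4.23 and 1.74 RPKM (1.81 (adjusted p = 0.00185)). None of these 3 genes was past the threshold between genotypes in week 1 epidermis. Transcript length moved with the tissue difference too: 12 of the 14 mitosis members above 3000 bases and 5 of the 11 others were higher in epidermis, and Spearman's rho of length and log2 difference was 0.51 over these 25 members and 0.28 over all genes with a length. Cdk1 (0.38 (adjusted p = 0.129)), Plk1 (0.32 (adjusted p = 0.152)) and Mybl2 (0.02 (adjusted p = 0.937)) were not past the threshold between the tissues. Rrm2 (1.53 (adjusted p = 0.000468)) and Rrm1 (0.93 (adjusted p = 0.00607)), the subunits of ribonucleotide reductase, were higher in epidermis. Mcm3 (-0.94 (adjusted p = 0.00266)), E2f1 (-0.75 (adjusted p = 0.00599)), Mcm2 (-0.60 (adjusted p = 0.00659)), Gins2 (-0.57 (adjusted p = 0.0273)) and Mcm5 (-0.47 (adjusted p = 0.0322)) were lower.

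**Figure D5:**
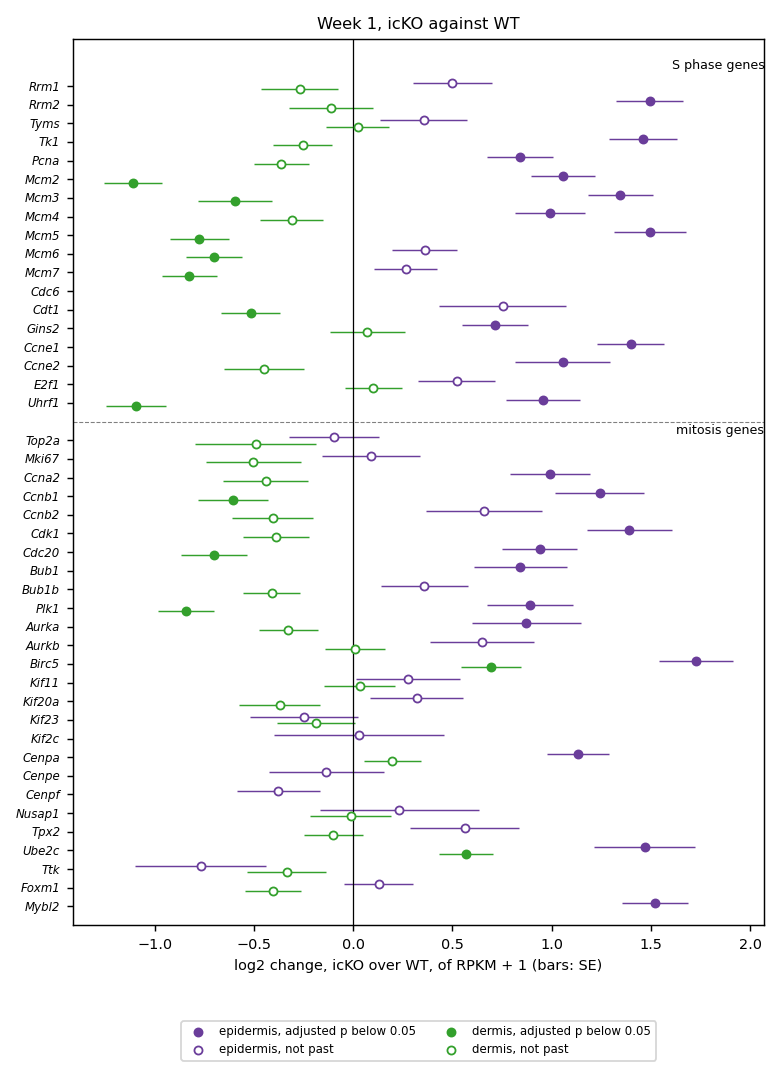
Log2 change of RPKM + 1, icKO over WT (horizontal axis, bars show SE), of each member (vertical axis) in week 1 epidermis and in week 1 dermis. S phase members lie to the right in epidermis (median 0.96) and to the left in dermis (median -0.41), and 23 of 43 members differ between the tissues by the interaction test.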

How the data were processed

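Total RNA of mouse epidermis and dermis was sequenced in 29 libraries. The deposited RPKM values were made by the authors, who aligned reads to mm10 with TopHat and computed RPKM in Partek, per the file headers; TopHat2 2.1.0 is named in the submitters' processing notes. The sources used here do not say how reads shared by several genes were counted, which could shift levels of genes with near copies. Day 3 epidermis came as genes, the other tables as transcripts, which were summed per gene. The 3 tables were normalized separately, so tests stayed within a table. Library kits and sequencers of 2 kinds are named for the series and not assigned to libraries here.

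log2(RPKM + 1) was tested with limma 3.58.1 (R 4.3.3, eBayes with trend). Tested genes reached 1 RPKM in a number of libraries no smaller than the smaller of the groups compared. All groups of a table were fitted together, except that each week 1 genotype comparison used only the libraries of its own tissue. The threshold was a Benjamini-Hochberg adjusted p under 0.05 over all tested genes. The pseudocount of 1 RPKM shrinks changes of low genes. RPKM carry no counting error, and depth is given as alignments or reads. The fit was tested on simulated data. The members, the further gene lists and the naming rule were chosen with earlier results of these data known. Values in every library are given for 15 members chosen for their roles, and in each comparison for the 2 members of lowest p and the 2 of largest change in S phase and in mitosis; of the other lists, for up to 3 genes of lowest adjusted p in each direction. Alternatives were a pseudocount of 0.1 RPKM, no filter, quantile normalization, the compared groups alone, no trend, terms for sex, basal keratins or hair shaft genes, averaging the most alike libraries, leaving out each library and, chosen after seeing the data, leaving out untreated WT b and icKO c together. GEO's genotype field disagrees with the title for 2 week 1 epidermis samples, and the titles and table headers were followed. Promoter windows are from RefSeq, build GRCm38.p6, and transcript lengths from GENCODE.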

Additional observations from a re-analysis of the deposited data

Results flagged for a closer look

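Single libraries lay far from the other 3 of their group in 8 of 132 tests of a member within a group of 4, where chance flags about 1 in 20. In untreated day 3 epidermis icKO library c was the lowest of its group in all 44 members, and in 3 of them it passed the limit for a gap. Mcm2 there was 6.82 RPKM against 9.48 to 10.01 (gap over range 0.857), Uhrf1 6.66 against 10.7 to 11.5 (0.864) and Birc5 2.75 against 4.47 to 4.74 (0.891). This is the library that listed both Xist and Ddx3y. With STAT3i, icKO library b was highest in 3 genes: Tk1 at 15.4 RPKM against 12.7 to 12.96 (0.911), Cenpa at 14.97 against 10.3 to 10.8 (0.875) and Cenpe at 2.04 against 1.12 to 1.23 (0.857). In the same group icKO library c was lowest in Pcna, at 54.9 RPKM against 69.5 to 72.5 (0.848), and in Gins2, a helicase cofactor, at 6.31 against 7.67 to 7.82 (0.913).

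The genotype change at week 1 was higher in epidermis than in dermis, by the interaction test, in 23 members. Of the genes given in every library these were Mcm5 with a difference of 2.27 on the log2 scale, Mcm2 with 2.17, Uhrf1 with 2.05, Mybl2 with 1.87, Ccnb1 with 1.85, Cdk1 with 1.78, Plk1 with 1.73, Rrm2 with 1.61, Ccne1 with 1.49 and Pcna with 1.20.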

How the results depend on the processing

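No paired analysis was possible because the columns carry no replicate numbers. Depth limits the lowest members, Cdc6, Cenpe, Cenpf and Bub1, which lie near 1 RPKM and enter or leave the tests with the filter. In untreated day 3 epidermis the count of S phase members called higher, 2, became 0 with no filter, quantile normalization, the compared groups alone, a sex term, averaged libraries or the basal keratin covariate, and 6 without WT b and icKO c; the 21 mitosis calls became 0 with the groups alone, the sex term, averaging or the covariate. Under STAT3i the 11 S phase calls became 0 with the sex term or the covariate and 7 with averaging, the 1 lower call became 0 with no filter, the sex term or the covariate, and the 26 mitosis calls became 0 with the sex term or the covariate, where Tk1 turned to -0.058. For STAT3i against untreated, the 1 mitosis call in icKO became 0 with averaging, the covariate or without the 2 libraries. In WT the 2 lower S phase calls became 0 with the groups alone or averaging, 1 S phase member was higher without the 2 libraries, and the count of mitosis members higher, 0, became 10 with the covariate and 5 without the 2 libraries. The interaction gave 1 lower S phase member without them. At week 1 quantile normalization gave 17 S phase and 17 mitosis members higher in epidermis. In dermis it gave 2 S phase members higher and 2 lower and 1 mitosis member lower, which was also 1 with no filter, and between WT tissues 5 S phase members higher and 3 lower. The cause of these shifts was not tested, except that averaging and the groups alone leave fewer libraries to estimate the spread.

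Leaving out 1 library gave these ranges, higher calls before lower ones. Untreated: S phase 0 to 6 and 0 to 0, mitosis 8 to 25 and 0 to 0. STAT3i: S phase 6 to 14 and 0 to 1, mitosis 24 to 26 and 0 to 0. STAT3i against untreated in icKO: S phase 0 to 1 higher and 0 to 0 lower, mitosis 0 to 4 and 0 to 0. The same in WT: S phase 0 to 1 and 0 to 2, mitosis 0 to 3 and 0 to 0. Interaction at day 3: S phase 0 to 2 and 0 to 1, mitosis 0 to 0 either way. Day 3 dermis: S phase 0 to 7 and mitosis 0 to 12 higher, 0 to 0 lower, the highest without the library labelled icKO c. Week 1 epidermis: S phase 0 to 14 and 0 to 0, mitosis 0 to 19 and 0 to 5. Week 1 dermis: S phase 0 to 0 and 3 to 7, mitosis 0 to 2 and 0 to 6. Week 1 interaction: S phase 11 to 14 and 0 to 0, mitosis 5 to 16 and 0 to 1. WT tissues: S phase 2 to 4 and 3 to 5, mitosis 12 to 21 and 0 to 0. At week 1 this leaves 1 library in a group, which is assumed to vary like the other libraries of the same fit. Over the members named in each comparison and all settings, 2407 results kept direction and side of the threshold, 205 were no longer called, 61 were newly called and 82 changed sign, 36 of those with 1 library left out. Of the 82 only 1, Tk1 under STAT3i, was a call as reported, and none was called with the other sign.

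The log2 values with a changed sign follow by setting. With the sex term, Pcna was -0.14 in untreated epidermis, -0.12 under STAT3i and -0.000256 for STAT3i against untreated in icKO, in WT the latter was 0.076 in Cdk1 and 0.0086 in Ccne1, and the interaction was -0.027 in Top2a, -0.024 in Plk1 and -0.019 in Foxm1. With the basal keratin covariate Pcna was -0.019 untreated, and under STAT3i Mcm2 was -0.011 and Pcna -0.073. STAT3i against untreated in icKO then gave -0.025 for Top2a, -0.027 for Cdk1, -0.15 for Rrm2, -0.12 for Pcna, -0.0901 for Cdc6 and -0.0198 for Uhrf1, and in WT 0.12 for Cdk1 and 0.063 for Ccne1. The interaction with that covariate was -0.25 in Mki67, -0.32 in Top2a, -0.054 in Ccnb1 and Pcna, -0.15 in Cdk1, -0.46 in Plk1, -0.26 in Foxm1, -0.0898 in Mcm2 and -0.19 in Mcm5 and Uhrf1. Without WT b and icKO c, STAT3i against untreated gave -0.029 for Pcna and -0.039 for Cdc6 in icKO, and 0.0602 for Cdk1, -0.057 for Mcm2, 0.028 for Ccne1 and -0.086 for Uhrf1 in WT, and the interaction gave -0.088 for Mki67, -0.15 for Top2a, -0.21 for Plk1 and -0.12 for Foxm1. In day 3 dermis the hair shaft covariate gave -0.012 for Mcm2 and -0.0088 for Pcna. Quantile normalization gave 0.37 for Top2a in week 1 epidermis, 0.054 for Cdk1 and 0.33 for Rrm2 in dermis, and 0.055 for Uhrf1 between the WT tissues.

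With 1 library left out these named members had values of both signs. STAT3i against untreated in icKO ranged from -0.027 to 0.16 in Rrm2, from -0.029 to 0.15 in Pcna and from -0.039 to 0.083 in Cdc6. In WT it ranged from -0.099 to 0.0602 in Cdk1, from -0.057 to 0.22 in Mcm2, from -0.11 to 0.028 in Ccne1 and from -0.086 to 0.20 in Uhrf1. The day 3 interaction ranged from -0.068 to 0.19 in Top2a, from -0.094 to 0.26 in Plk1 and from -0.0399 to 0.16 in Foxm1. Day 3 dermis gave -0.025 to 0.25 for Pcna and -0.23 to 0.32 for E2f1. Week 1 epidermis gave -0.14 to 0.32 for Mki67 and -0.33 to 0.14 for Top2a, week 1 dermis -0.35 to 0.12 for Rrm2, and the week 1 interaction -0.0704 to 0.86 for Top2a. Between WT tissues Mybl2 ranged from -0.12 to 0.16, Pcna from -0.078 to 0.17 and Uhrf1 from -0.26 to 0.011.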
